A study of Mus musculus with 6 samples.

Results

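The 65 genes described here encode axon guidance ligands and their receptors: semaphorins, plexins, ephrins, Eph receptors, Slit and Robo proteins, netrins and Unc5 receptors. They were taken by gene symbol from the 51912 genes counted in each library, as 20 semaphorins, 9 plexins, 8 ephrins, 14 Eph receptors, 3 Slit ligands, 4 Robo receptors, 3 netrins and 4 Unc5 receptors. The cells were GFP+ cells sorted from the mouse aorta-gonad-mesonephros (AGM) at embryonic stage E10.5, the tissue around the dorsal aorta in which the first haematopoietic stem cells arise. All embryos were of the MacGreen strain (Csf1r-EGFP), in which the Csf1r promoter drives EGFP in macrophages and some of their precursors. The GFP+CD206+ group (CD206pos) carried the mannose receptor CD206 on the surface and the GFP+CD206- group (CD206neg) did not. Each of 3 litters gave 1 library of each group, and every library pooled cells of 3 to 5 AGM. No agent was applied to either group, and both shared a digestion of 45 min at 37 °C.

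Guidance molecules were named for steering growing axons, and many of them also act in blood vessels and immune cells. Semaphorins are secreted or membrane-bound ligands of plexins, which act on small GTPases, and the secreted class 3 semaphorins mostly need a neuropilin as co-receptor. Ephrins are membrane-bound ligands of the Eph receptor tyrosine kinases, so that their signalling needs contact between cells. Slit proteins bind Robo receptors, and netrins bind Dcc, neogenin and the Unc5 receptors. In macrophages and dendritic cells, class 4 semaphorins, plexins and neuropilins are the best known members.

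The libraries held 16973143 to 17918687 reads in genes in CD206pos and 16730846 to 18214283 in CD206neg, and 3 reads in a library stood for 0.165 to 0.179 CPM, the scaled read count used for levels of a gene. Mrc1, which encodes CD206, was at 1458, 1792 and 1506 CPM in the CD206pos libraries of litters 1, 2 and 3, against 51.6, 118.5 and 111.6 CPM in the CD206neg libraries. The 10 macrophage markers checked were read in every library, with a summed level of 9571 to 13062 CPM in CD206pos and 4148 to 5184 CPM in CD206neg. Summed markers of blood progenitors lay at 23.0 to 52.2 CPM in CD206pos and 669 to 944 CPM in CD206neg, and those of granulocytes at 17.4 to 69.7 CPM in CD206pos and 1867 to 2871 CPM in CD206neg. Among these, 7 of 10 macrophage markers rose in CD206pos, and 6 of 6 progenitor markers (2 at 0 reads in CD206pos) and 7 of 7 granulocyte markers (4 at 0) fell. Endothelial markers summed to 69.8 to 107.3 CPM in CD206pos and 205 to 354 CPM in CD206neg, with 3 of 11 lower in CD206pos and Sox17 at 0 reads there. The litter 3 libraries stood apart in the sum of 10 mesenchymal markers, with 64.2 CPM in CD206pos and 83.3 CPM in CD206neg. In litters 1 and 2 this sum lay at 2.00 to 11.9 CPM in CD206pos and 4.96 to 9.04 CPM in CD206neg. Most of it in litter 3 came from the collagen genes Col3a1, Col1a1 and Col1a2. They were at 30.8, 18.7 and 6.94 CPM in CD206pos and 30.3, 17.5 and 13.9 CPM in CD206neg. Dcn, Postn, Pdgfra and Lum in CD206pos and Pdgfrb in CD206neg were highest in litter 1 or 2. Sums for neural markers, epithelial markers (Pax2 at 0 reads), erythroid markers and megakaryocyte markers were at most 14.3, 32.8, 11.9 and 87.3 CPM in any library. In bulk samples, fewer cells of a type and less RNA per cell cannot be told apart.

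The sequences before the annotated starts of Sema6d and Epha7, the guidance genes that passed the test, and of the co-receptor gene Nrp2, which also passed, are shown first. Each is the 250 bases upstream of a RefSeq start on the plus strand of GRCm38.p6, in lower case, with capitals where a searched motif matched.
Sema6d, first start, chr2:124089719-124089968: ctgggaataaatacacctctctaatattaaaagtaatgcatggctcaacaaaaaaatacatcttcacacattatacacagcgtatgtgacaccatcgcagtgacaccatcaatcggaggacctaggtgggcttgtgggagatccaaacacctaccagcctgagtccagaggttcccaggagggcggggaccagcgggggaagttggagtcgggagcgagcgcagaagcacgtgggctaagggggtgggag
Sema6d, second start, chr2:124653331-124653580: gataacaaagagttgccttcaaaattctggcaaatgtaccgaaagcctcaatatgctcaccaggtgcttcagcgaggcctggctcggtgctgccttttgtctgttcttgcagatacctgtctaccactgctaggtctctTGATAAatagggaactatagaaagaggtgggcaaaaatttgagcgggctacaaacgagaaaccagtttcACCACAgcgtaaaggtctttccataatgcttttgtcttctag
Epha7, chr4:28812881-28813130: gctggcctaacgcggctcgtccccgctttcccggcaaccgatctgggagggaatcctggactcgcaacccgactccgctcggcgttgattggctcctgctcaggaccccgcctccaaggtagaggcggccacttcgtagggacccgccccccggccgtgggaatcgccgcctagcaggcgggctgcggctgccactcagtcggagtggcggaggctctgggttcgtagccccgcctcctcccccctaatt
Nrp2, chr1:62703067-62703316: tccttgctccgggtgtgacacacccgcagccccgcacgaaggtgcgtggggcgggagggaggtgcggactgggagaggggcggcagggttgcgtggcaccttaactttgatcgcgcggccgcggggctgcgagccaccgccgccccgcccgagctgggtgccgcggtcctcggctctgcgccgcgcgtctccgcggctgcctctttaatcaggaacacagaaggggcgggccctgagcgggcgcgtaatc
Both strands were searched for AGGAAGT (PU.1-type), TGTGGT (RUNX-type), TCACGTG (MITF/TFE-type), TGANTCA (AP-1) and for GATA with A or T before it and A or G after it. Of 32851 RefSeq windows of this length, 7.69%, 14%, 3.13%, 6.75% and 26.5% held these motifs in that order. The second Sema6d window held a GATA match and a RUNX-type match, beginning 111 and 42 bases before the start and not overlapping each other. None of these letters occurred in the other 3 windows, and which start was used was not measured. G and C made up 52.4% and 45.2% of the Sema6d windows, 69.2% of the Epha7 window and 72.4% of the Nrp2 window.

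Most guidance genes were low or unread in these cells, and a handful of semaphorins and plexins carried nearly all of the signal. Between 22 and 37 of the 65 genes had a read in a CD206pos library and between 31 and 42 in a CD206neg library. With detection set at 1 CPM in all 3 libraries of a group, 11 were detected in CD206pos and 14 in CD206neg, 9 of them in both. The genes detected in both were Sema4a, Sema4b, Sema4c, Sema4d, Plxnb2, Plxnc1, Plxnd1, Plxnb3 and Plxna1. Semaphorins and plexins made up 95.4% to 97.5% of the members' summed TPM (a level scaled for gene length) in CD206pos and 87.0% to 94.0% in CD206neg. The plot of summed levels shows how much of this was Plxnb2.

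**Figure D1:**
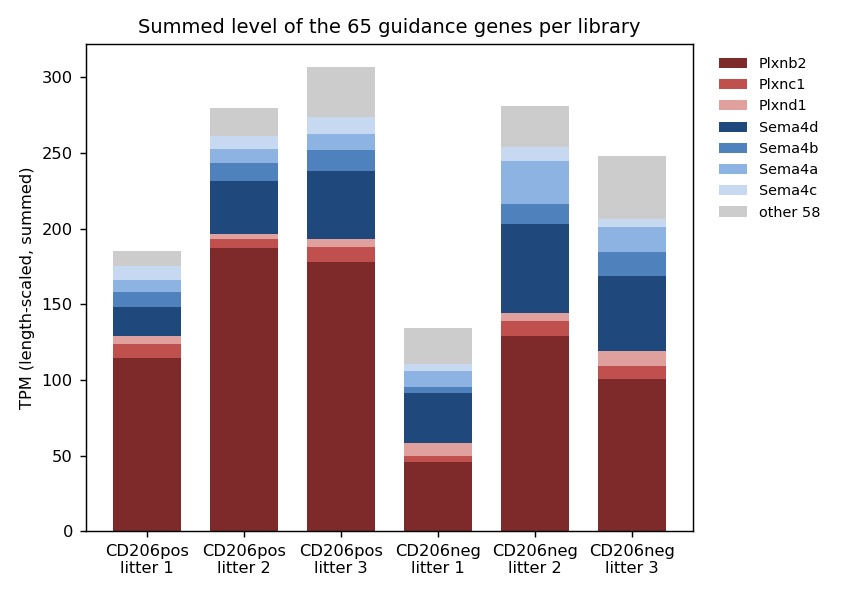
Summed TPM of the 65 guidance genes (vertical axis) in the 3 CD206pos and 3 CD206neg libraries, stacked by gene. Plxnb2 (dark red) is the largest part of each bar, with 115 to 187 TPM in CD206pos and 46.1 to 129.3 TPM in CD206neg, and Sema4d (dark blue) is next.

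Per length, the order in CD206pos was Plxnb2 at 160.1 ± 39.5 TPM (SD, n = 3, as for all means here), Sema4d at 33.0 ± 13.0 TPM and Sema4b at 11.9 ± 1.99 TPM. Sema4c (9.67 ± 1.58 TPM), Sema4a (9.45 ± 0.98 TPM), Plxnc1 (8.15 ± 2.21 TPM) and Plxnd1 (4.53 ± 0.82 TPM) followed. In CD206neg the order was Plxnb2 at 92.0 ± 42.2 TPM, Sema4d at 47.1 ± 13.3 TPM, Sema4a at 18.4 ± 9.38 TPM and Sema4b at 11.1 ± 6.20 TPM. Plxnd1 (7.75 ± 2.48 TPM), Plxnc1 (7.49 ± 3.29 TPM) and Sema4c (6.42 ± 2.53 TPM) came next. Sema4b was above Sema4c, Sema4a and Plxnc1 in every CD206pos library, and the SD ranges of these 3 overlapped, as did those of Plxnd1, Plxnc1 and Sema4c in CD206neg.

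The comparison of CD206pos with CD206neg asked which of these genes differed between GFP+ cells with and without the mannose receptor on the surface. Of the 65 genes, 26 passed the filter on low counts and were tested with edgeR's quasi-likelihood test (Benjamini-Hochberg adjusted p under 0.05 over all 12668 genes tested), and 39 did not pass the filter. The semaphorin gene Sema6d rose in CD206pos and the Eph receptor gene Epha7 fell, and the other 24 did not pass. Sema6d had 0 reads in CD206neg and Epha7 had 0 in CD206pos, so each passed the filter only through its higher group. These 2 calls are 7.69% of the 26 tested, beside 4.87% (617 genes) of all tested genes. Among all genes 2.97% (376) were higher and 1.9% (241) lower, and with library totals as the only scaling 273 were higher and 284 lower. An unadjusted p under 0.05 was reached by 5 of the 26 (19.2%), beside 17.6% of all genes. The groups did not overlap for 4 of the 26 (15.4%), beside 24.6% of all genes. The log2 fold change was positive for 13 and negative for 13, with a median of 0.03 beside -0.004 over all genes, also 0.03 with Sema6d and Epha7 at their bounds.

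**Figure D2:**
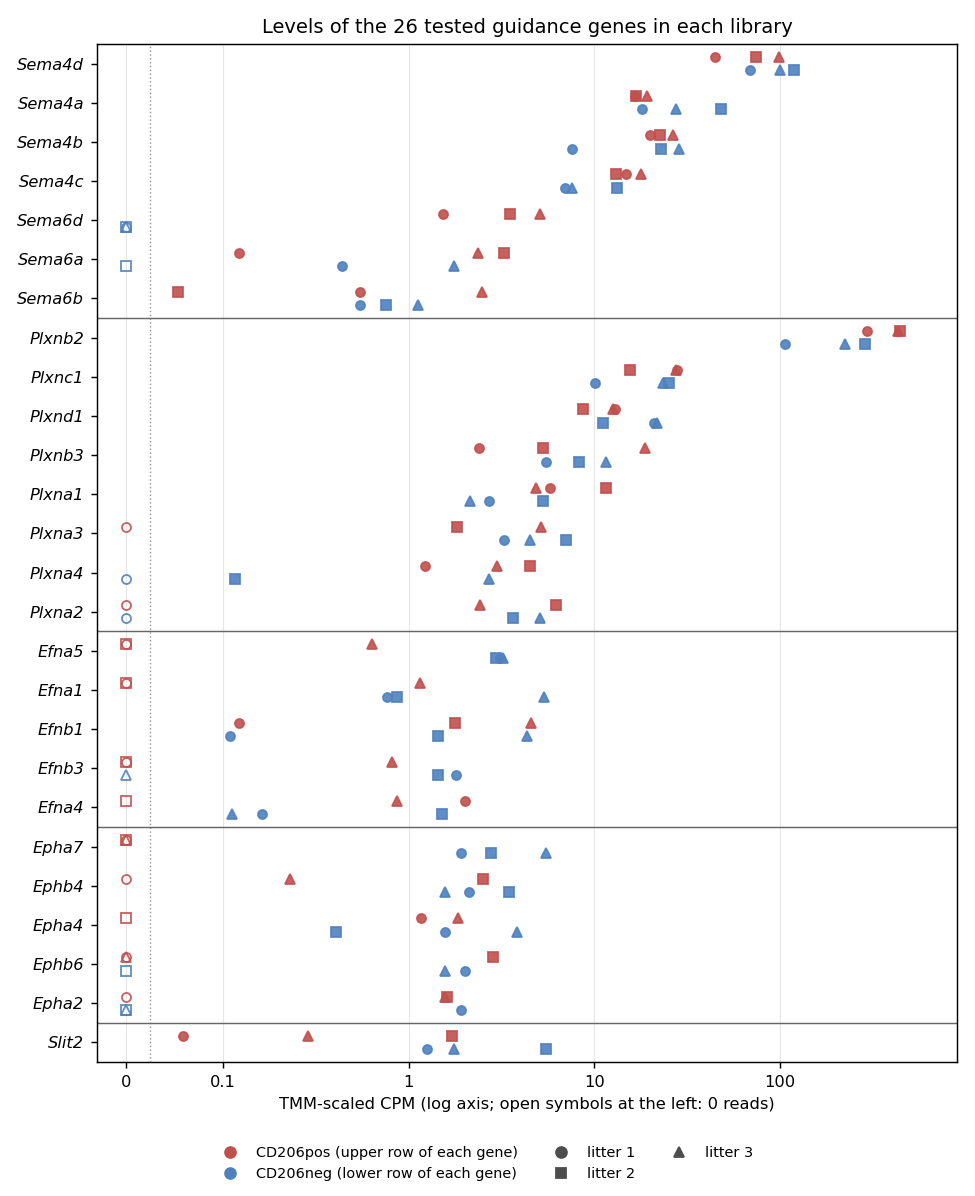
Scaled CPM (horizontal log axis, 0 reads at the left edge) of the 26 tested guidance genes in every library, CD206pos above CD206neg for each gene, with symbols for litters. Sema6d has reads in the CD206pos libraries and none in CD206neg, and Epha7 has the opposite pattern.

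Among the ligands, the clearest difference was in Sema6d, a membrane-bound class 6 semaphorin that binds Plxna1 (ENSMUSG00000027200.17, GRCm38 chromosome 2, 124089969 to 124667770, plus strand). Sema6d was at 1.53, 3.49 and 5.09 CPM in the CD206pos libraries of litters 1, 2 and 3, from 25, 61 and 88 reads, against 0 reads in the 3 CD206neg libraries. The CD206pos level is at least 60.0-fold higher against a floor of 3 reads over the CD206neg group (adjusted p = 0.0268, edgeR), and this bound covers counting error only. In the fit with a litter term the call was lost (adjusted p = 0.0784). Without CD206pos replicate 2 or 3, or CD206neg replicate 1, 2 or 3, the adjusted p was between 0.0623 and 0.118. Its class 6 relatives were low and overlapped between the groups. Sema6a had 2, 57 and 41 reads in CD206pos and 8, 0 and 31 in CD206neg (adjusted p = 0.75), Sema6b had 1 to 43 reads in CD206pos and 10 to 20 in CD206neg (adjusted p = 0.94), and Sema6c had none.

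Class 4 semaphorins, membrane-bound ligands known for roles in immune cell contacts, supplied 94.3% to 97.0% of semaphorin TPM in CD206pos and 94.5% to 99.4% in CD206neg. Sema4d, encoding CD100, a ligand of Plxnb1 and Plxnb2, was at 44.6, 74.3 and 98.9 CPM in CD206pos and 68.6, 118.2 and 99.6 CPM in CD206neg. The groups overlapped, and its log2 fold change was -0.39 ± 0.31 (SE, adjusted p = 0.60, edgeR). Sema4a, which in mice binds Tim-2 on T cells as well as plexins, was at 16.6, 16.8 and 19.2 CPM in CD206pos and 18.0, 48.0 and 27.5 CPM in CD206neg. Sema4a was lower in CD206pos within each litter, 1.09 times in litter 1, 2.85 times in litter 2 and 1.43 times in litter 3, while the groups overlapped because the CD206neg library of litter 1 was low. Its log2 fold change of -0.83 ± 0.36 had an unadjusted p of 0.048 and an adjusted p of 0.28 (edgeR). The progenitor, granulocyte and megakaryocyte markers that were higher in CD206neg moved the same way, and their part in this was not tested.

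Sema4c, a ligand of Plxnb2, was at 14.9, 13.0 and 17.9 CPM in CD206pos and 6.92, 13.3 and 7.61 CPM in CD206neg. Sema4c was 2.15 and 2.36 times higher in CD206pos in litters 1 and 3 and 0.98 times as high in litter 2, so the groups overlapped, and the log2 fold change was 0.72 ± 0.36 (adjusted p = 0.37, edgeR). Sema4b was at 19.9, 22.6 and 26.4 CPM in CD206pos and 7.62, 22.8 and 28.4 CPM in CD206neg (adjusted p = 0.87). Apart from the CD206neg library of litter 1, its levels were alike, and without that library the log2 fold change turned from 0.23 to -0.16. Of the exonic bases of Sema4c, 7.27% are shared with an antisense gene, whose reads the counting leaves out.

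Among the receptors, Plxnb2, a receptor of class 4 semaphorins, had the highest level in every library (ENSMUSG00000036606.16, chromosome 15, 89155549 to 89171120, minus strand). Plxnb2 was at 295, 441 and 432 CPM in CD206pos and 106.5, 285 and 224 CPM in CD206neg. Every CD206pos library was above every CD206neg library, though the lowest CD206pos value (295) and the highest CD206neg value (285) lay close together. Within litters it was 2.77, 1.54 and 1.93 times higher in CD206pos. The log2 fold change was 0.92 ± 0.33 with an unadjusted p of 0.021 and an adjusted p of 0.18 (edgeR), so it did not pass. It passed in the fit with a litter term (log2 fold change 1.01, adjusted p = 0.0245, edgeR) and with DESeq2 (adjusted p = 0.0326). The fit with a litter term called 1 of the 26 members, Plxnb2, and 5.55% of all genes. Macrophage markers were also higher in CD206pos, and their part in the levels of Plxnb2 and of the neuropilins was not tested.

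The other tested plexins did not pass the test. Plxna1, the Sema6d and Sema3 receptor gene, was at 5.75, 11.6 and 4.86 CPM in CD206pos and 2.72, 5.27 and 2.14 CPM in CD206neg (log2 fold change 1.13 ± 0.58, adjusted p = 0.37). The groups overlapped, since both libraries of litter 2 were high, and 10.7% of its exonic bases are shared with an antisense gene. Plxnd1, the Sema3e receptor gene known from endothelial cells, was at 12.9, 8.65 and 12.7 CPM in CD206pos and 20.9, 11.1 and 21.7 CPM in CD206neg. It was lower in CD206pos within each litter, though the groups overlapped (log2 fold change -0.65 ± 0.36, adjusted p = 0.41), as were the summed endothelial markers, whose part was not tested.

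Plxnc1, the receptor gene of Sema7a, was at 27.8, 15.5 and 27.4 CPM in CD206pos and 10.1, 25.4 and 23.3 CPM in CD206neg (adjusted p = 0.83). The litters went different ways, and without CD206neg replicate 1 the log2 fold change of 0.26 turned to -0.05. Plxnb3 was at 2.38, 5.27 and 18.7 CPM in CD206pos and 5.50, 8.22 and 11.5 CPM in CD206neg (adjusted p = 0.98). Its litter 3 libraries were the highest of both groups, and its log2 fold change of 0.07 was -1.16 without CD206pos replicate 3 and -0.16 without CD206neg replicate 1. Plxna2, Plxna3 and Plxna4 had 0 to 109 reads in CD206pos and 0 to 122 reads in CD206neg, with adjusted p between 0.68 and 1.00 (0.9994 for Plxna2). Plxnb1, the other Sema4d receptor gene, stayed below the filter, with 47 reads in 1 CD206pos library and 3 reads in 1 CD206neg library, both of litter 3.

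**Figure D3:**
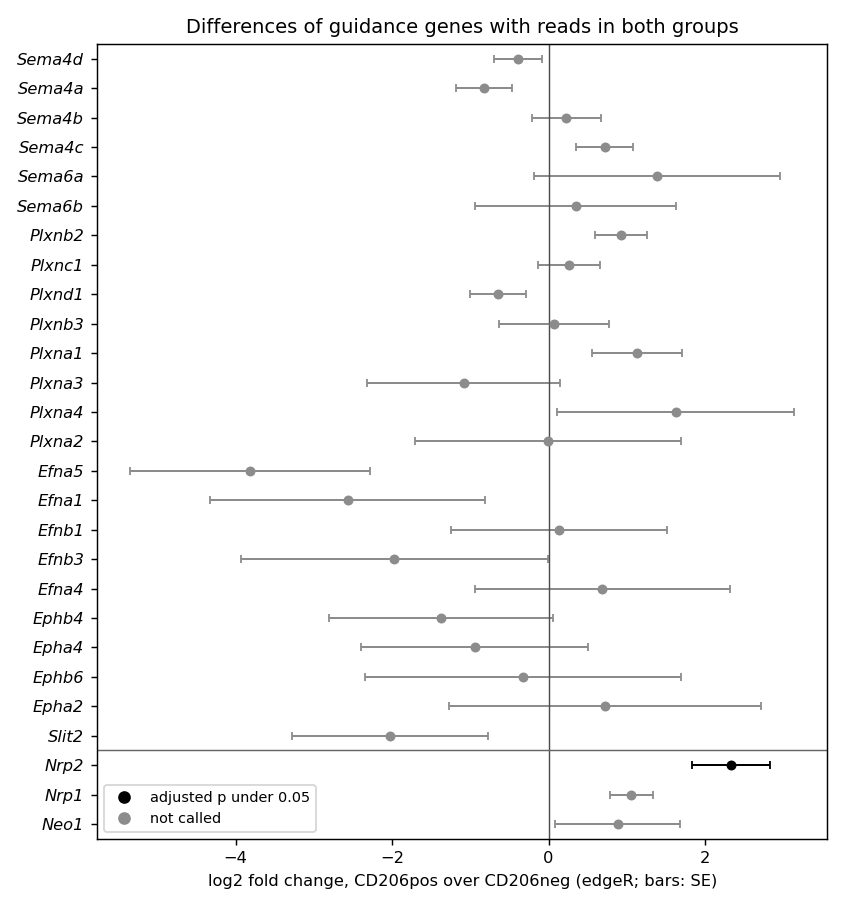
Log2 fold change of CD206pos over CD206neg (horizontal axis, bars are SE) for the 24 tested guidance genes with reads in both groups and, under the line, for 3 co-receptor genes. Nrp2 at 2.33 is the one called gene drawn (black), and intervals are wide for the low ephrin and Eph genes.

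Of the co-receptors, Nrp2 rose in CD206pos and Nrp1 did not pass the test. Nrp2, a neuropilin that binds class 3 semaphorins and Vegfc (chromosome 1, 62703285 to 62818695), was at 18.8, 42.4 and 33.6 CPM in CD206pos and 10.4, 5.33 and 3.04 CPM in CD206neg. The groups did not overlap, and it rose with a log2 fold change of 2.33 ± 0.50 (adjusted p = 0.0352, edgeR). This call was lost with a litter term (adjusted p = 0.0614) and without CD206pos replicate 2 or 3 or CD206neg replicate 2 or 3 (adjusted p between 0.0878 and 0.169). Nrp1, the co-receptor of Sema3a and of Vegfa, was at 168, 320.2 and 253 CPM in CD206pos and 90.2, 109.8 and 156 CPM in CD206neg. Its groups did not overlap either, with a log2 fold change of 1.06 ± 0.27 and an adjusted p of 0.071. Nrp1 passed with a litter term (adjusted p = 0.0277), with both other filters (0.0355 and 0.0285), with DESeq2 (0.00262), with limma-voom (0.0209) and without CD206pos replicate 1 (0.0398).

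Timd2 (chromosome 11, 46668960 to 46707061) encodes Tim-2, which in mice binds Sema4a and H-ferritin, and it fell in CD206pos. It had 0, 3 and 0 reads in CD206pos and 124, 30 and 79 reads in CD206neg, with every CD206neg library above every CD206pos library. The ratio of CD206neg to CD206pos was 74.4 with an exact 95% counting interval of 25.1 to 363 (adjusted p = 0.0464, edgeR). The Timd2 call was lost with a litter term (adjusted p = 0.104), with limma-voom (0.111) and without any single library of either group (0.061 to 0.126, and 0.214 without CD206neg replicate 1). Of 21 co-receptor and partner genes on the list, 9 were tested, of which 1 rose and 1 fell. These 2 calls are 22.2% of those tested, beside 4.87% of all genes, and the other 7 did not pass. An unadjusted p under 0.05 was reached by 7 of the 9 (77.8%), beside 17.6% of all genes, and the groups did not overlap for 7 (77.8%), beside 24.6%. DESeq2 called 5 of the 9 (Met, Nrp1, Nrp2, Rgmb and Timd2), beside 9.55% of all genes, and limma-voom called Nrp1 and Nrp2, beside 6.43%. Besides Nrp2, Nrp1 and Timd2, those with an unadjusted p under 0.05 were Rgmb, a neogenin ligand gene, Met, a receptor tyrosine kinase gene that couples to plexin B, the Unc5 ligand gene Flrt3 and the integrin gene Itgb1. Rgmb was at 7.83 to 11.7 CPM in CD206pos and 2.34 to 4.00 CPM in CD206neg (adjusted p = 0.10, edgeR). Met was at 0 to 1.96 CPM in CD206pos and 3.49 to 24.4 CPM in CD206neg (adjusted p = 0.11, edgeR). Flrt3 was at 8.82 to 21.8 CPM in CD206pos and 22.8 to 38.1 CPM in CD206neg (adjusted p = 0.21). Dcc had no read in any library, and Neo1, the gene of its relative neogenin, was at 1.83 to 6.07 CPM in CD206pos and 0.93 to 3.24 CPM in CD206neg (adjusted p = 0.67).

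**Figure D4:**
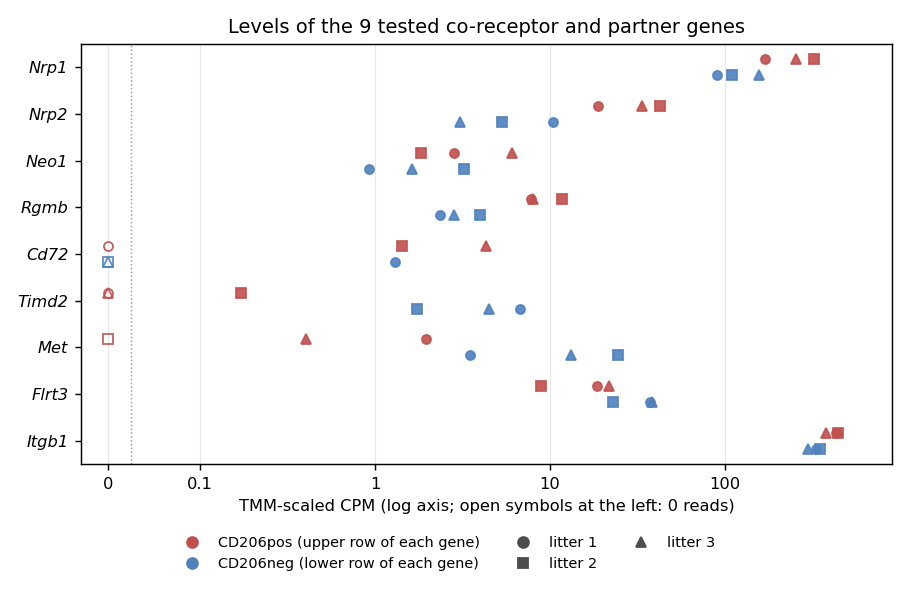
Scaled CPM (horizontal log axis, 0 reads at the left edge) of the 9 tested co-receptor and partner genes in every library, CD206pos above CD206neg for each gene. Nrp2 and Nrp1 lie to the right in CD206pos, Timd2 and Met lie to the left, and Neo1 and Cd72 overlap.

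Of the Eph receptors, which are mostly known from neural, endothelial and epithelial cells, 5 of 14 were tested and 1 fell. This call is 20% of the 5, beside 4.87% of all tested genes, and 5 genes are too few to compare these shares. Epha7, a receptor of ephrin-A ligands (ENSMUSG00000028289.12, chromosome 4, 28813131 to 28967499, plus strand), had 0 reads in the 3 CD206pos libraries. The CD206neg libraries of litters 1, 2 and 3 had 35, 48 and 98 Epha7 reads, or 1.91, 2.78 and 5.53 CPM. The CD206pos level is at least 58-fold lower against a floor of 3 reads over that group (adjusted p = 0.0259, edgeR). A litter term removed the call (adjusted p = 0.078), as did fits without CD206pos replicate 2 or 3 or CD206neg replicate 1, 2 or 3 (adjusted p between 0.0536 and 0.12). Summed progenitor, granulocyte, endothelial and megakaryocyte markers (1.28 to 10.2 CPM in CD206pos and 59.3 to 87.3 CPM in CD206neg for megakaryocytes) were also higher in CD206neg, and their part in the Epha7 difference was not tested.

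The other tested Eph genes overlapped between groups and did not pass. Ephb4, known as a receptor of venous endothelium, had 0, 44 and 4 reads in CD206pos and 39, 60 and 28 reads in CD206neg (adjusted p = 0.72). Epha4 had 0 to 32 reads in CD206pos and 7 to 68 in CD206neg, Ephb6 had 0 to 50 in CD206pos and 0 to 37 in CD206neg, and Epha2 had 0 to 28 in CD206pos and 0 to 35 in CD206neg (adjusted p between 0.83 and 0.97). Below the filter, Epha5 had 44 reads in the CD206pos library of litter 3 and none elsewhere, and Ephb2 had 34 reads there and 0 to 18 in CD206neg. Epha1 had 0 to 5 reads in CD206pos and 1 to 30 in CD206neg, and Ephb1 had 0 to 16 in CD206pos and 0 to 21 in CD206neg. Epha10 and Ephb3 had at most 6 reads in a library, and Epha3, Epha6 and Epha8 had no read.

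Among the ephrins, the ligands of these receptors, 5 of 8 were tested and none passed, with 1 at an unadjusted p under 0.05 (edgeR). That gene is 20% of the 5, beside 17.6% of all tested genes. Efna5, a membrane-anchored ephrin that binds EphA receptors including Epha7, had 0, 0 and 11 reads in CD206pos and 57, 51 and 57 reads in CD206neg. In CPM this is 0, 0 and 0.64 in CD206pos and 3.10, 2.95 and 3.21 in CD206neg, so the groups did not overlap. Its log2 fold change was -3.82 ± 1.54 with an unadjusted p of 0.036 and an adjusted p of 0.24 (edgeR). Without CD206pos replicate 3, the library with the 11 reads, it passed (adjusted p = 0.0469).

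Efna1 had 0, 0 and 20 reads in CD206pos and 14, 15 and 95 in CD206neg (adjusted p = 0.54), highest in litter 3 of each group. Efnb3 had 0 to 14 reads in CD206pos and 0 to 33 in CD206neg (adjusted p = 0.70), and Efna4 had 0 to 33 in CD206pos and 2 to 26 in CD206neg (adjusted p = 0.90). Efnb1, a ligand of EphB receptors, was at 0.12, 1.78 and 4.57 CPM in CD206pos and 0.11, 1.45 and 4.34 CPM in CD206neg (adjusted p = 0.98). Its levels followed the litters and not the groups. Below the filter, Efnb2, the arterial ephrin that binds Ephb4, had 13 reads in CD206pos and 61 reads in CD206neg, all in litter 3. Efna2 had 0 to 7 reads in CD206pos and 0 to 12 in CD206neg, and Efna3 had none.

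Slit2, a secreted Robo ligand, was the one tested gene of the Slit, Robo, netrin and Unc5 families. It had 1, 30 and 5 reads in CD206pos and 23, 95 and 31 in CD206neg, with litter 2 highest in both groups. Slit2 was lower in CD206pos in each litter, and the groups overlapped (log2 fold change -2.02 ± 1.25, adjusted p = 0.48, edgeR). Slit1 had 0, 0 and 23 reads in CD206pos and 42, 0 and 3 in CD206neg, and Slit3 had 8 in 1 CD206neg library. The Robo genes stayed below the filter. Robo4, an endothelial Robo, had no read in CD206pos and 54, 28 and 1 reads in CD206neg. Summed endothelial and blood progenitor markers were also higher in CD206neg, and their part in the Robo4 reads was not tested. Robo1 had 0, 0 and 17 reads in CD206pos and 8, 26 and 8 in CD206neg, Robo2 had 57 reads in the CD206neg library of litter 3 alone, and Robo3 had at most 2. Ntn1, the netrin-1 gene, had 31, 0 and 18 reads in CD206pos and 0, 1 and 0 in CD206neg, a ratio of 51.2 with an exact 95% counting interval of 8.76 to 2062. That interval does not cover the spread between libraries, and the CD206pos library of litter 2 had none. Ntn4 and Ntn5 had no read. Unc5a had no read in CD206pos and 31, 23 and 0 in CD206neg, Unc5d had 23 reads in 1 CD206pos library, and Unc5b and Unc5c had at most 10 in any library.

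Secreted class 3 semaphorins, the ligands of the neuropilins, were hardly read. Sema3d, Sema3e and Sema3f had no read, Sema3a and Sema3g had at most 8 reads in a library, and Sema3b had 7 in 1 CD206pos library and 20 in 1 CD206neg library. Sema3c had 21 reads in CD206pos and 33 in CD206neg, all in litter 3. Sema7a, the ligand of Plxnc1, had no read. Sema4f had none in CD206pos and 19, 0 and 33 reads in CD206neg, and Sema4g had none in CD206pos and 9, 0 and 22 in CD206neg. Sema5a had 24 reads in the CD206pos library of litter 1 alone, and Sema5b had 9 in that of litter 3.

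In all, 11 of the 39 genes below the filter had no read, 10 stayed under 20 reads in every library and 18 had at least 20 reads in a library. For 11 of these 18 (61.1%) a library with at least 20 reads stood beside 0 reads in the other 2 libraries of its group, beside 45.3% of 1520 such genes among all those below the filter. The highest library was of litter 3 for 11 of the 18 (61.1%), beside 45.3% of the 1520. The litter 3 libraries were those with a higher sum of mesenchymal markers, mostly collagen genes, and the part of these in the sparse reads was not tested. At this depth a gene with 0 reads was not detectable, which does not show that it is absent.

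**Figure D5:**
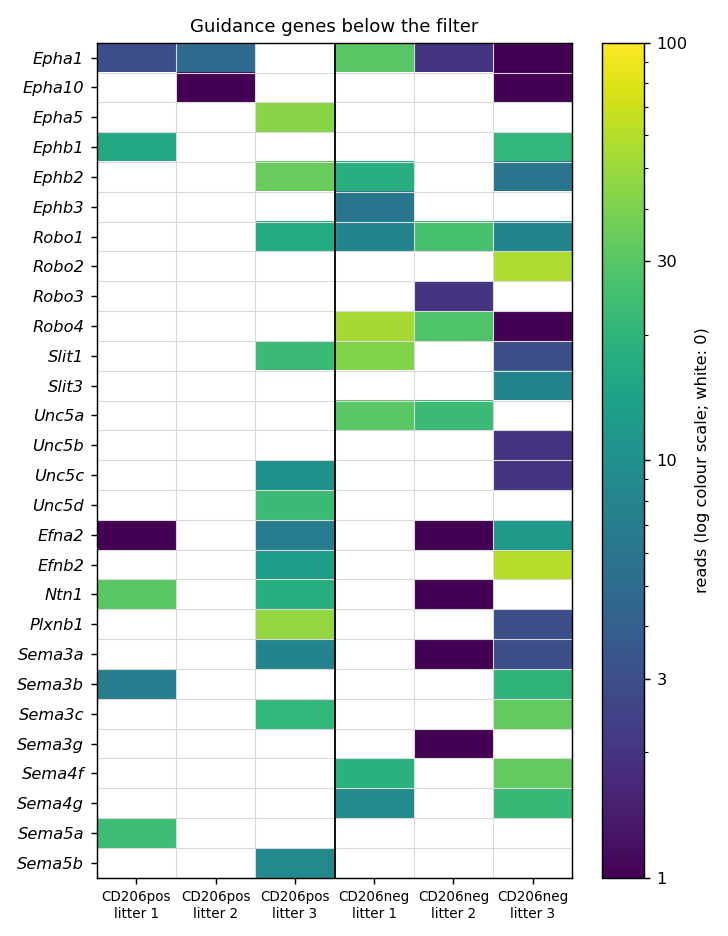
Reads (log colour scale, white is 0) of the 28 guidance genes below the filter with at least 1 read, by library, with CD206pos left of the black line and CD206neg right of it. Many rows are filled in a single library of a group, most often that of litter 3, up to 61 reads for Efnb2.

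Ligands and receptors were set side by side for 27 textbook pairs. With detection at 1 CPM in all 3 libraries, both sides were detected for 4 pairs in CD206pos, namely Sema4a with Plxnd1, Sema4c with Plxnb2, Sema4d with Plxnb2 and Sema6d with Plxna1. In CD206neg both sides were detected for 3 pairs, the same ones without Sema6d and Plxna1. The receptor side alone was detected for 9 pairs in CD206pos and 10 in CD206neg, such as the neuropilins without their class 3 ligands and Plxnc1 without Sema7a. The ligand side alone was detected for 1 pair in CD206pos (Sema4d with Plxnb1) and for 4 in CD206neg, where Efna5 and Slit2 also counted as detected. None of the listed Eph, Robo, netrin or Unc5 pairs had both sides detected in either group. Efna5 and Epha7, which are not paired on this list, were both detected in CD206neg.

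Cytosolic effectors of guidance receptors, such as Mical monooxygenases, collapsin response mediators, small GTPases and their regulators, had a read for 46 of the 48 genes listed. Of these, 39 were tested and none was called by edgeR, while 10 (25.6%) had an unadjusted p under 0.05, beside 17.6% of all genes. DESeq2 called 6 of the 39 (Fer, Gipc1, Pak1, Rap1b, Rnd3 and Srgap2), where it called 9.55% of all genes, and limma-voom called 3 (Fer, Gipc1 and Srgap2), where it called 6.43%. Srgap2, a GTPase-activating protein of the Slit and Robo pathway, was at 74.6 to 148.6 CPM in CD206pos and 54.8 to 67.5 CPM in CD206neg (log2 fold change 0.91 ± 0.25, adjusted p = 0.091, edgeR). Gipc1, an adaptor that binds neuropilin-1, was at 225 to 267 CPM in CD206pos and 138 to 187 CPM in CD206neg (adjusted p = 0.097). Mical1, which oxidises actin downstream of plexins, was at 20.7 to 41.0 CPM in CD206pos and 43.0 to 66.0 CPM in CD206neg (adjusted p = 0.16). Rnd3, a small GTPase gene, was at 3.15 to 10.2 CPM in CD206pos and 13.8 to 20.2 CPM in CD206neg (adjusted p = 0.13). The groups of these 4 genes did not overlap, as for 15 of the 39 effectors (38.5%), beside 24.6% of all genes.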

How the data were processed

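RNA of the 6 sorted libraries was read as raw whole-number read counts per gene, which the authors deposited as 1 table per library. featureCounts 1.5.2 was run at exon level with GENCODE M14, per the file headers, and with no option set for strand, pairs or multi-mapping. By its defaults, reads shared between overlapping genes are then not counted. The aligner named in the submitters' processing notes is STAR 2.3 and the genome mm10 (GRCm38.p5). Whether the libraries kept strand is not stated there.

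Symbols came from GENCODE M21 by gene identifier (51633 of 51912 matched), and promoter windows from RefSeq (GRCm38.p6, 56 of the 65 genes). Counts were filtered with filterByExpr, scaled by TMM and fitted across all genes with edgeR 4.0.16 in R 4.3.3 (quasi-likelihood, robust, CD206pos over CD206neg). SE is the log2 fold change over the square root of F. TPM used the exonic lengths in the files. Scripts were tested on simulated data. Alternatives were the litter block, other scalings and filters, DESeq2 1.42.0, limma-voom with library quality weights (limma 3.58.1) and leaving out libraries or litters.

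The series' design names 3 litters and the titles number the AGM, so same-numbered libraries were read as 1 litter. Their deviations from group means correlated at 0.155, 0.0588 and 0.216. Same-group libraries differed by more than sampling noise (chi-square per degree of freedom 36.9 to 90.4). No molecular identifiers are recorded, so reads may repeat molecules, and floors and intervals cover counting error only. Within a group the litters are separate, and p-values weigh the group difference against the spread between libraries. The main fit leaves out the pairing of the groups by litter, which the fit with a litter term takes in.

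The members, lists and tests were chosen with earlier results of these data known. Genes are named if called, if their unadjusted p is under 0.05, if they reach 5 CPM in a group, or, below the filter, if they have at least 20 reads in a library. Neuropilins, Neo1, Dcc and called partners are also named. Other members that are named, to account for all of them, and partners and effectors without a call were chosen after their values were seen. Some marker genes are not reported here.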

Additional observations from a re-analysis of the deposited data

How the results depend on the processing

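Of 26 guidance genes tested, 2 were called, and this became 1 (Plxnb2) with the litter block, 0 with the stricter filter, which left 9 to test without Sema6d and Epha7, and 3 with DESeq2, while RLE, upper-quartile and total scaling, the looser filter, limma-voom and the fit without robust estimation gave 2. Without 1 library it was 0 to 2, and without both libraries of litter 1, 2 or 3 it was 0, 0 and 0. Of 48 partner and effector genes tested, 2 were called, against 11 with DESeq2, 5 with limma-voom, 0 to 3 without 1 library and 1, 0 and 0 without litter 1, 2 or 3. Over all genes the 617 calls became 1210 with DESeq2, 190 to 561 without 1 library, and 307, 3 and 153 without litter 1, 2 or 3. With the replicate block 703 were called, and beside Sema6d, Epha7, Plxnb2, Nrp1, Nrp2 and Timd2 it changed no other call of a named gene. Dpysl2, of the effector list, was called with the block alone. Detection at 5 CPM left 7 genes in CD206pos and 8 in CD206neg, and at 1 read it gave 15 in CD206pos and 22 in CD206neg. Direction reversed for Plxnb3 with the block (-0.37), library totals (-0.031), limma-voom (-0.21), without CD206pos replicate 3 (-1.16), CD206neg replicate 1 (-0.16) or litter 3 (-0.87). It reversed for Plxnc1 without CD206neg replicate 1 (-0.05) or litter 1 (-0.18), and for Sema4b likewise (-0.16 and -0.064). Without 1 library each, these 3 genes ranged up to 0.513 for Plxnb3, 0.495 for Plxnc1 and 0.596 for Sema4b. The causes were not tested, and fits without libraries also have fewer samples. None of the other tested genes named by the rule (17 in all) reversed under the alternatives run.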

Other observations

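Plexin transcripts were set against semaphorin transcripts within each library, a comparison chosen after the values were seen and given without a test. Summed plexin TPM was 2.76, 3.06 and 2.42 times summed semaphorin TPM in the CD206pos libraries of litters 1, 2 and 3, and 1.19, 1.39 and 1.40 times in the CD206neg libraries. For Plxnb2 over its ligand gene Sema4d the ratio was 6.00, 5.37 and 3.96 in CD206pos and 1.41, 2.19 and 2.03 in CD206neg. Both ratios are taken within a library, so no scaling between libraries enters them, and in both the groups did not overlap. They are largely 1 measurement, since Plxnb2 made up 86.2% to 91.1% of plexin TPM in CD206pos and 72.6% to 84.2% in CD206neg. For summed Eph receptor over summed ephrin TPM the groups overlapped, with ratios of 0.249, 3.36 and 0.287 in CD206pos and 1.24, 0.364 and 0.343 in CD206neg.

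Plxna1, whose groups overlapped, was 2.11, 2.20 and 2.27 times higher in CD206pos within litters 1, 2 and 3, on the CPM scale. In the fit with a litter term it did not pass (adjusted p = 0.265, edgeR). Plxnb2, Nrp1 and Nrp2 were also higher in CD206pos within each litter. These genes were picked after their values were seen, and no share of all genes with 1 direction in every litter is given beside them.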
